A study of Mus musculus with 47 samples.

Results

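The inhibin and activin genes described here were 10 genes: the subunits Inha, Inhba, Inhbb, Inhbc and Inhbe, the receptors Acvr1b, Acvr2a and Acvr2b, and the binding proteins Fst and Fstl3. They were chosen by name, and all 10 were among the 23416 genes kept from the count data. Inhbb was selected on its low counts in spermatozoa of both generations descending from Scml2-KO males, so its sperm values are a description: the fits across all genes include it, but no p or call on those contrasts is read as support. Activins are dimers of beta subunits, and inhibins pair the alpha subunit with a beta subunit. Activin binds a type II receptor, which recruits a type I receptor that phosphorylates SMAD2 and SMAD3, whereas inhibin opposes activin and follistatins trap it. In the testis, inhibin B from Sertoli cells restrains pituitary FSH, and in the liver hepatocytes are a known source of the beta C and beta E subunits.

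RNA-seq was compared in livers and cauda epididymal spermatozoa of mouse males aged 8 to 12 weeks, with 2 libraries per group. The Ctrl-F1 and KO-F1 males had a BDF2 background. They came from intracytoplasmic injection (ICSI) of testicular sperm into BDF1 oocytes, the sperm being from wild-type or Scml2-KO (Scml2-/y) C57BL/6 fathers. KO-F2 males had a BDF3 background and were bred by natural mating of KO-F1 males with C57BL/6 females. SCML2 is a germline Polycomb protein encoded on the X chromosome, so all the males measured carried a wild-type Scml2 and the groups differed in their fathers or grandfathers. There was no Ctrl-F2 group, so generation, mating route and background differed together between KO-F2 and Ctrl-F1 males. Spermatozoa were motile cells collected by swim-up, and how many animals entered a library is not given in the sources used here.

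Library totals were 11339729 to 14278900 counts in liver, 1503733 to 2778171 in spermatozoa of F1 males, and 8384266 and 11462105 in those of KO-F2 males. The ribosomal precursor Rn45s took 13.3% to 28.7% of the counts in 5 of the 6 sperm libraries and 3.52% in KO-F2 replicate 2. Only the labels of the KO-F2 libraries name a sequencing run, so that run and the KO-F2 group cannot be told apart. Scml2 had no count in liver, and its sperm counts were 0 and 18 (Ctrl-F1), 0 and 4 (KO-F1), and 6 and 9 (KO-F2). The 8 measured hepatocyte markers summed to at least 1485059 counts per liver library and at most 14 per sperm library. Levels below are CPM (a count scaled to a fixed library size, with TMM factors), computed within liver and within spermatozoa, and 3 counts in a library are taken as its detection limit. In bulk samples, fewer cells of a type and less RNA per cell cannot be told apart.

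Inhbb, which encodes the beta B subunit of activin B and inhibin B, lies on chromosome 1 of GRCm38.p6 from 119415463 to 119422248 on the minus strand, with 2 exons. Inhbc, which encodes the beta C subunit, lies on chromosome 10 from 127356322 to 127370548 on the minus strand, and Inhbe lies 4473 bases from it on the same strand. The 250 bases before the start of each are printed because Inhbb is the member whose sperm counts chose the set and Inhbc is the member with the highest level in liver. The sequences are from RefSeq (GRCm38.p6), read 5′ to 3′ on the gene's strand, and capitals mark CG dinucleotides. That of Inhbb is chr1:119422249-119422498 and that of Inhbc is chr10:127370549-127370798.
Inhbb: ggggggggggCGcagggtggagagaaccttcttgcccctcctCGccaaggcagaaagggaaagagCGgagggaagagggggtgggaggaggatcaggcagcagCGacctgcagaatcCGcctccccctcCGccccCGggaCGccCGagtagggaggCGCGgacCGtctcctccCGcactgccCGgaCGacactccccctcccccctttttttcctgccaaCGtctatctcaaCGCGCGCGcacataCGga
Inhbc: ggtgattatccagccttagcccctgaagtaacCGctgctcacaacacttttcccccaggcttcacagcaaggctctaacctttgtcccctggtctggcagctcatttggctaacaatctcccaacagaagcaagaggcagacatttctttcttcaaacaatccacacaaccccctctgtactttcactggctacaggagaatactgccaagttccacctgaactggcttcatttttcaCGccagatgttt
The Inhbb stretch holds 21 CG dinucleotides and the Inhbc stretch holds 2.

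Promoter windows of 300 bases (250 before and 50 after the start) were given for 9 members, and Fst had none. For Inha, Inhba and Acvr2b the start used lay inside the RefSeq gene and not at its first base. The Inhba window was chr13:16011601-16011900, whereas the gene starts at 16004256 on the plus strand. The values of these genes thus describe an internal start. The median over 32851 promoters was 7 CG dinucleotides. Inhbb had 23, a number reached by 21.5% of all promoters. The 3 receptors and Fstl3 were also rich in CG, with 54 in Acvr2a, 51 in Acvr1b, 27 in Acvr2b and 25 in Fstl3. The other subunit genes were at or under the median, with 7 in Inhba, 6 in Inhbe, 5 in Inha and 4 in Inhbc. Searched on both strands, TATAAA was found in the windows of Inhba and Fstl3 and in 13.6% of all promoters. CCAAT was found in those of Inha and Inhbe and in 37.4% of all, and TGACG, the core of a cAMP response element, was in none of the 9 and in 20.8% of all.

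In Ctrl-F1 spermatozoa, Inhbb had 29 counts (12.6 CPM) and 23 counts (19.2 CPM). Both KO-F1 libraries had 0 counts, at totals of 2778171 and 2085285 counts against 2426900 and 1503733 in Ctrl-F1. KO-F2 replicate 1 had 4 counts (0.379 CPM) and KO-F2 replicate 2 had 1 count (0.127 CPM). Neither KO group overlapped the Ctrl-F1 libraries, as was the case for 53.8% (KO-F1) and 48.9% (KO-F2) of all genes tested. The mean was 15.9 ± 4.67 CPM (SD, n = 2) in Ctrl-F1 and 0.253 ± 0.178 CPM (SD, n = 2) in KO-F2 spermatozoa. With the KO-F1 libraries set at their limit of 3 counts each, the KO-F1 level was at least 15.5-fold lower than the Ctrl-F1 level. The ratio of pooled, scaled counts in KO-F2 to Ctrl-F1 was 0.0183, with an exact 95% interval of 0.00570 to 0.0454 that covers counting error only. The fitted log2 differences were -8.20 (SE 1.75) for KO-F1 and -5.86 (SE 0.98) for KO-F2, and both fits used the same Ctrl-F1 libraries. The first depends on the small prior count that edgeR adds to counts of 0 and is no bound. The plot of all members by library shows the Ctrl-F1 values of Inhbb above, and all 4 KO values near or under, the level of 3 counts.

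**Figure D1:**
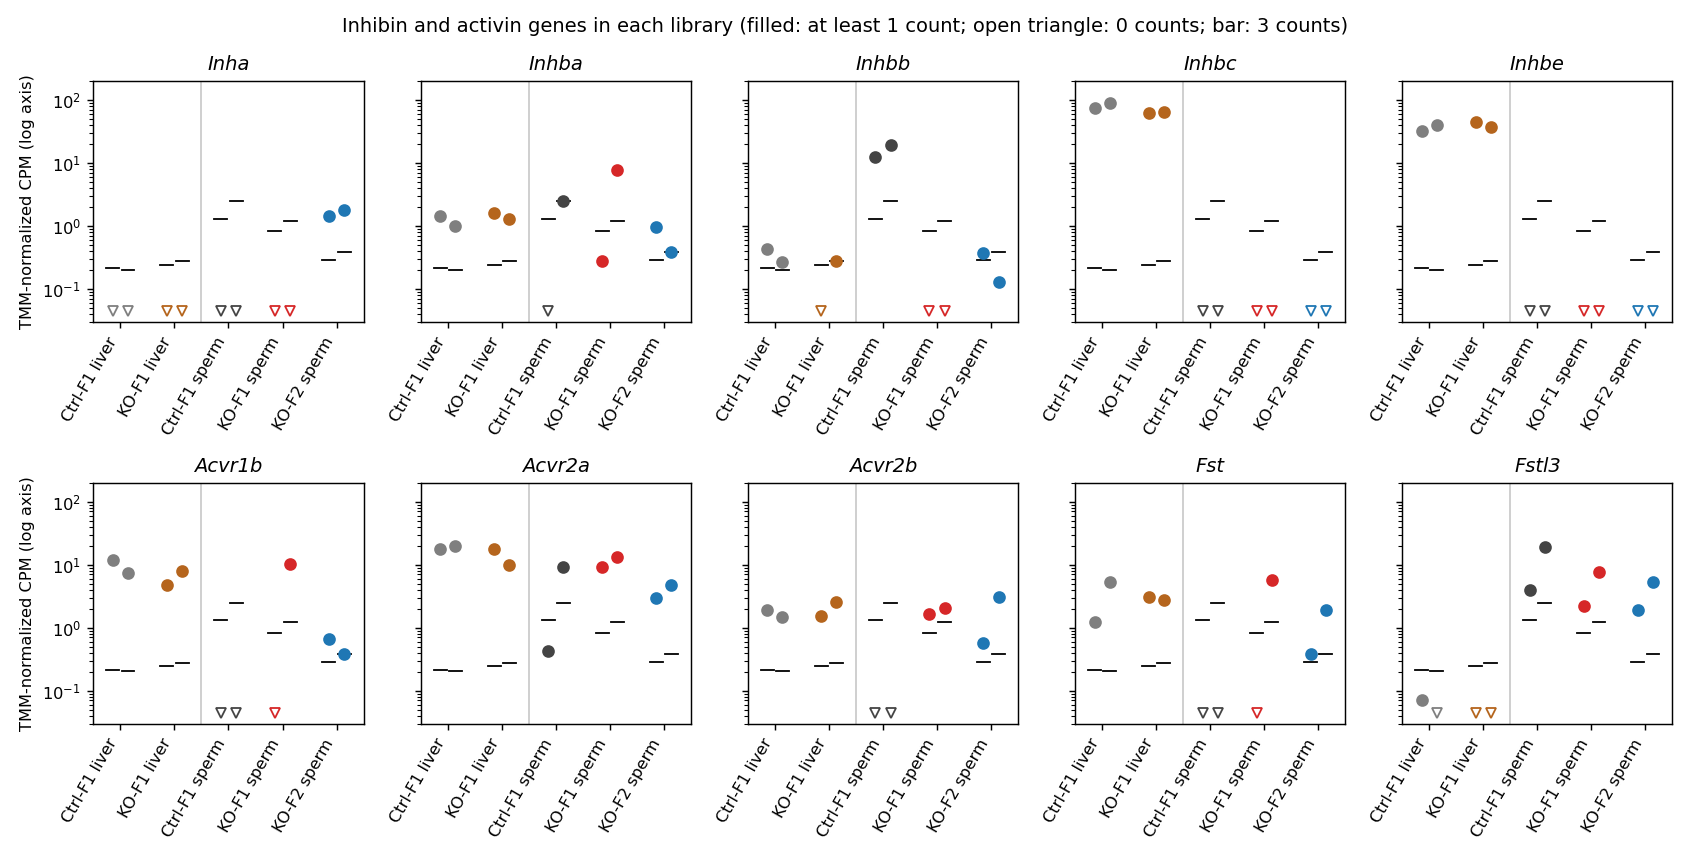
TMM-scaled CPM (log axis) of the 10 genes in each of the 10 libraries. Filled points have at least 1 count, open triangles at the bottom mark 0 counts, and each short bar is the level of 3 counts in that library. Inhbb is at 12.6 and 19.2 CPM in Ctrl-F1 spermatozoa and at 0 counts in both KO-F1 libraries, whereas Inhbc and Inhbe have no count in any sperm library.

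Inhbb was also counted in liver at the limit of detection. Its counts were 6 and 4 in livers of Ctrl-F1 males and 0 and 3 in those of KO-F1 males, too few for the test across genes. The pooled ratio of KO-F1 to Ctrl-F1 was 0.375, with an exact 95% counting interval from 0.0663 to 1.46, so a difference was not detectable at this depth.

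Among 12331 genes compared by Pearson's r of log2(CPM + 1) over the 6 sperm libraries, which share their group structure, those most like Inhbb were Tmem220 (r = 0.996), Dlx6as1 (r = 0.995), Mdk (r = 0.994), Ap2a2 (r = 0.993) and Pwwp2a (r = 0.991). Tmem220, a transmembrane protein gene, had 13 and 12 counts in Ctrl-F1 spermatozoa, none in KO-F1, and 5 and 0 in KO-F2. Dlx6as1, a non-coding RNA, had 11 and 6, then 0 and 0, then 4 and 0 counts. Mdk, which encodes the growth factor midkine, was at 5.64 and 5.84 CPM in Ctrl-F1, at 1.39 and 1.63 CPM in KO-F1, and at 1.71 and 1.78 CPM in KO-F2 spermatozoa. Ap2a2 and Pwwp2a had the same order of groups with a much smaller span: Ap2a2 was at 45.1 and 46.7 CPM in Ctrl-F1 and at 31.1 to 32.5 CPM in the other 4 libraries. Pwwp2a was at 44.7 and 43.4 CPM in Ctrl-F1 and at 18.7 to 21.9 CPM in the others. Such values rest on the step between the Ctrl-F1 libraries and the rest.

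Lists of cell markers moved between the sperm groups as well. The summed level of 40 late spermatogenesis genes was 160200 and 167600 CPM in Ctrl-F1, 50960 and 43630 CPM in KO-F1, and 191700 and 186800 CPM in KO-F2 spermatozoa. This sum was low in KO-F1 and not in KO-F2. The 19 epididymal epithelium genes summed to 22310 and 9121 CPM in Ctrl-F1, to 8698 and 12340 CPM in KO-F1, and to 3823 and 1898 in KO-F2. Of the 13 measured Sertoli and Leydig genes, 10 and 13 were at 0 in the Ctrl-F1 libraries, 11 and 10 in KO-F1, and 7 and 7 in the deeper KO-F2 libraries. Fshr, which marks Sertoli cells, had no count in any sperm library, and the list summed to 7.38 and 0 CPM in Ctrl-F1, to 42.2 and 39.9 CPM in KO-F1, and to 18.6 and 31.4 in KO-F2. The 10 leukocyte genes summed to 7407 and 3994, 23990 and 10790, and 7160 and 6773 CPM in the same order of groups. Cd52, which epididymal epithelium also expresses, made up most of that sum in F1 spermatozoa. Without it the list was at 331 and 1000 CPM in Ctrl-F1, at 316 and 482 CPM in KO-F1, and at 3870 and 5271 in KO-F2. The 9 smooth muscle and fibroblast genes summed to 193 to 863 CPM over the 6 libraries, with the 3 groups overlapping. The part of these cells in the Inhbb values was not tested.

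**Figure D2:**
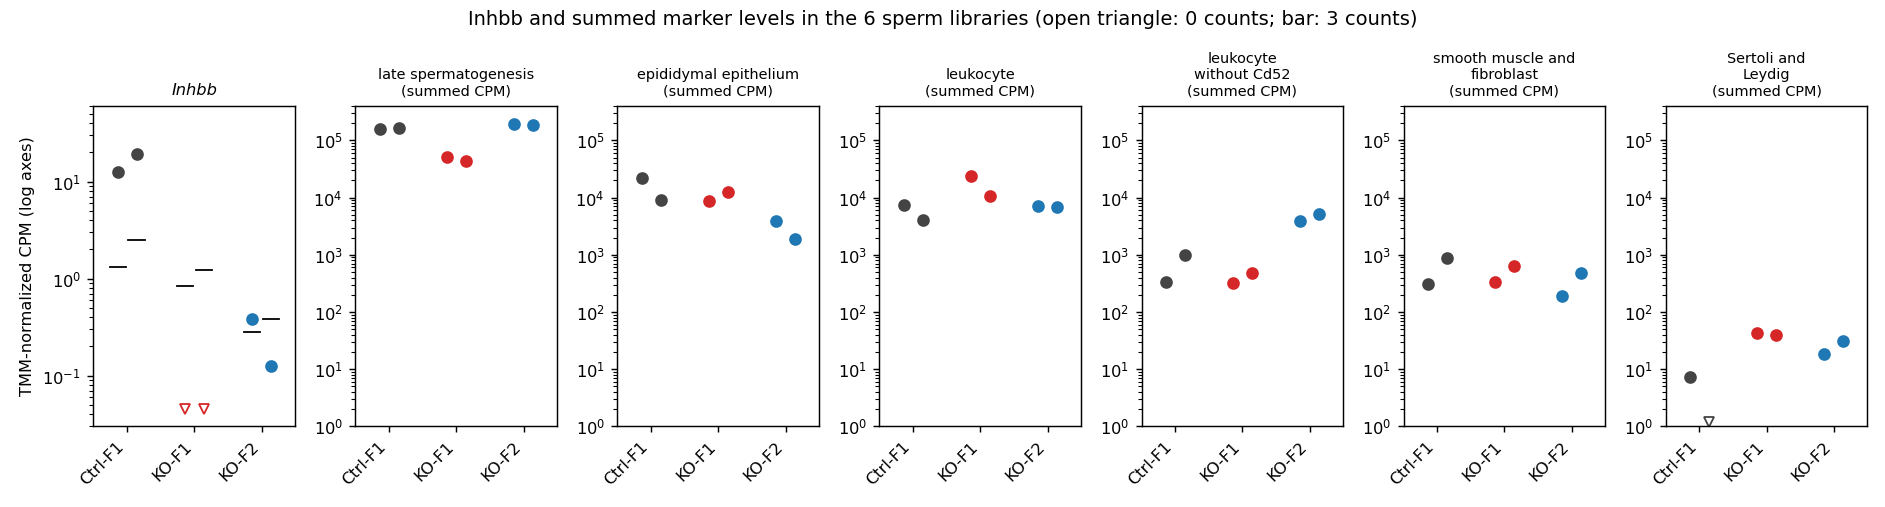
Inhbb (left, CPM) and the summed CPM of each marker list (other panels) in the 6 sperm libraries, all on log axes. Points are libraries, open triangles mark 0 counts, and short bars are 3 counts. Late spermatogenesis genes are at 43630 to 50960 CPM in KO-F1 and at 160200 to 191700 CPM in the other groups. Inhbb is at 12.6 and 19.2 CPM in Ctrl-F1 and at 0 to 0.379 CPM in the KO groups.

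The other subunits were scarce in spermatozoa. Inha, which encodes the alpha subunit that makes a dimer an inhibin, had 0 counts in all F1 sperm and liver libraries and 15 and 14 counts (1.42 and 1.78 CPM) in KO-F2 spermatozoa. Against KO-F1, whose libraries are set at 3 counts, the KO-F2 level was at least 1.56-fold higher. Against Ctrl-F1 no fold is given, since the KO-F2 values lay between the 3-count levels of the Ctrl-F1 libraries. Inhba, which encodes the beta A subunit of activin A, had 0 and 3 counts in Ctrl-F1 spermatozoa, 1 and 19 in KO-F1, and 10 and 3 in KO-F2. The 19 counts in KO-F1 replicate 2 had no match in the other library of that group. Inhbc and Inhbe had no count in any sperm library.

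Of the receptors, Acvr2a was the one with at least 1 count in every sperm library. It encodes a type II receptor for activin. It had 1 and 11 counts (0.434 and 9.18 CPM) in Ctrl-F1, 33 and 33 (9.16 and 13.4 CPM) in KO-F1, and 31 and 38 (2.94 and 4.83 CPM) in KO-F2 spermatozoa. The Ctrl-F1 libraries overlapped both other groups. Acvr2b, the second activin type II receptor, had 0 and 0, 6 and 5, and 6 and 24 counts in the same order. Acvr1b, the type I receptor ALK4, had 0 and 0, 0 and 25, and 7 and 3 counts. In the KO groups Acvr2b was at 0.568 to 3.05 CPM and Acvr1b at 0 to 10.2 CPM, while 3 counts in the Ctrl-F1 libraries would be 1.30 and 2.50 CPM.

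The follistatin genes differed in where they were counted. Fstl3, a secreted activin and myostatin antagonist, had 9 and 23 counts (3.91 and 19.2 CPM) in Ctrl-F1, 8 and 19 (2.22 and 7.74 CPM) in KO-F1, and 20 and 42 (1.89 and 5.33 CPM) in KO-F2 spermatozoa. The 3 groups overlapped, and replicate 2 was the higher in each. Fst, which encodes follistatin, had no count in Ctrl-F1 spermatozoa, 0 and 14 in KO-F1, and 4 and 15 in KO-F2. KO-F1 replicate 2 was thus the library that held most of the KO-F1 counts of Inhba, Acvr1b and Fst.

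Per kb of exon, the highest members in Ctrl-F1 spermatozoa were Fstl3 (5.91 ± 5.53 CPM per kb, SD, n = 2) and Inhbb (3.73 ± 1.10), ahead of Acvr2a (0.846 ± 1.09) and Inhba (0.196 ± 0.278). The spreads of Fstl3 and Inhbb overlapped, as did those of Acvr2a and Inhba. In KO-F1 spermatozoa the order was Fstl3 (2.55 ± 2.00), Acvr2a (1.99 ± 0.533), Acvr1b (1.15 ± 1.63) and Fst (0.997 ± 1.41), and these neighbours overlapped. In KO-F2 spermatozoa Fstl3 (1.85 ± 1.25) came before Inha (0.685 ± 0.108) and Acvr2a (0.683 ± 0.235), whereas Inhbb (0.0594 ± 0.0419) was the lowest member with a count. Inhbb thus stood second of the 10 genes in Ctrl-F1 spermatozoa and last among those counted in KO-F2 spermatozoa.

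Between KO-F1 and Ctrl-F1 spermatozoa, 3 members had enough counts for the test across genes, and 7 did not pass its filter. A gene was called where its fold reached 2 and its adjusted p was under 0.01 (edgeR, quasi-likelihood F test). None of the 3 was called, beside 0% of the 10785 genes tested. Inhbb was 1 of the 3 and was chosen on this contrast. Neither of the others had an unadjusted p under 0.05, beside 19.5% of all genes. Acvr2a differed by a fitted log2 of 1.37 (SE 1.37, adjusted p = 0.641, edgeR) and Fstl3 by -1.12 (SE 1.25, adjusted p = 0.686, edgeR). Both rested on single Ctrl-F1 libraries: the Acvr2a difference was 0.37 without Ctrl-F1 replicate 1 and 4.62 without replicate 2, and the Fstl3 difference was -1.87 and 0.40. DESeq2 called 7.80% of the 5000 genes to which it gave an adjusted p. No member was among those genes, so none could be called by it.

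Between KO-F2 and Ctrl-F1 spermatozoa, the same 3 members were tested and 0 were called by edgeR, beside 0% of 13149 genes. The calls over all genes moved with the fit, to 362 with a replicate block and to between 35 and 277 without 1 library. Acvr2a and Fstl3 had no unadjusted p under 0.05, beside 14.9% of all genes. Acvr2a differed by a log2 of -0.27 (adjusted p = 0.961, edgeR) and Fstl3 by -1.70 (SE 1.06, adjusted p = 0.527, edgeR). DESeq2 called 2.14% of 12963 genes and 1 member, Inhbb, which was selected on this contrast, so its call is no independent evidence. The sign of the Acvr2a difference turned with single libraries: without Ctrl-F1 replicate 2 it was 3.07, and without Ctrl-F1 replicate 1 it was -1.27. The Fstl3 difference was -2.45 without Ctrl-F1 replicate 1 (adjusted p = 0.0487, edgeR), -0.16 without Ctrl-F1 replicate 2, -1.12 without KO-F2 replicate 1 and -2.62 without KO-F2 replicate 2.

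Between KO-F2 and KO-F1 spermatozoa, Acvr2a, Acvr2b and Fstl3 were tested and 0 were called, beside 2.31% of 13517 genes by edgeR and 13.6% of 15135 by DESeq2. Acvr2a was lower in KO-F2 by a log2 of -1.53 (SE 0.69, adjusted p = 0.154, edgeR) and its groups did not overlap, as in 65.8% of all genes. None of the 3 had an unadjusted p under 0.05, beside 36.8% of all genes. Acvr2b differed by -0.05 (adjusted p = 0.981, edgeR) and Fstl3 by -0.45 (adjusted p = 0.779, edgeR). Inhbb, with 5 counts in KO-F2 and 0 in KO-F1, was below the filter of edgeR, and DESeq2 gave it no adjusted p. Scaling to the late spermatogenesis genes, which moved the median of all genes from 0.13 to -2.12, took Acvr2a to -3.73 with an adjusted p of 0.00337 in edgeR. With that scaling edgeR called 4971 of 13517 genes, 4923 of them lower in KO-F2, so the Acvr2a call is not particular to it.

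**Figure D3:**
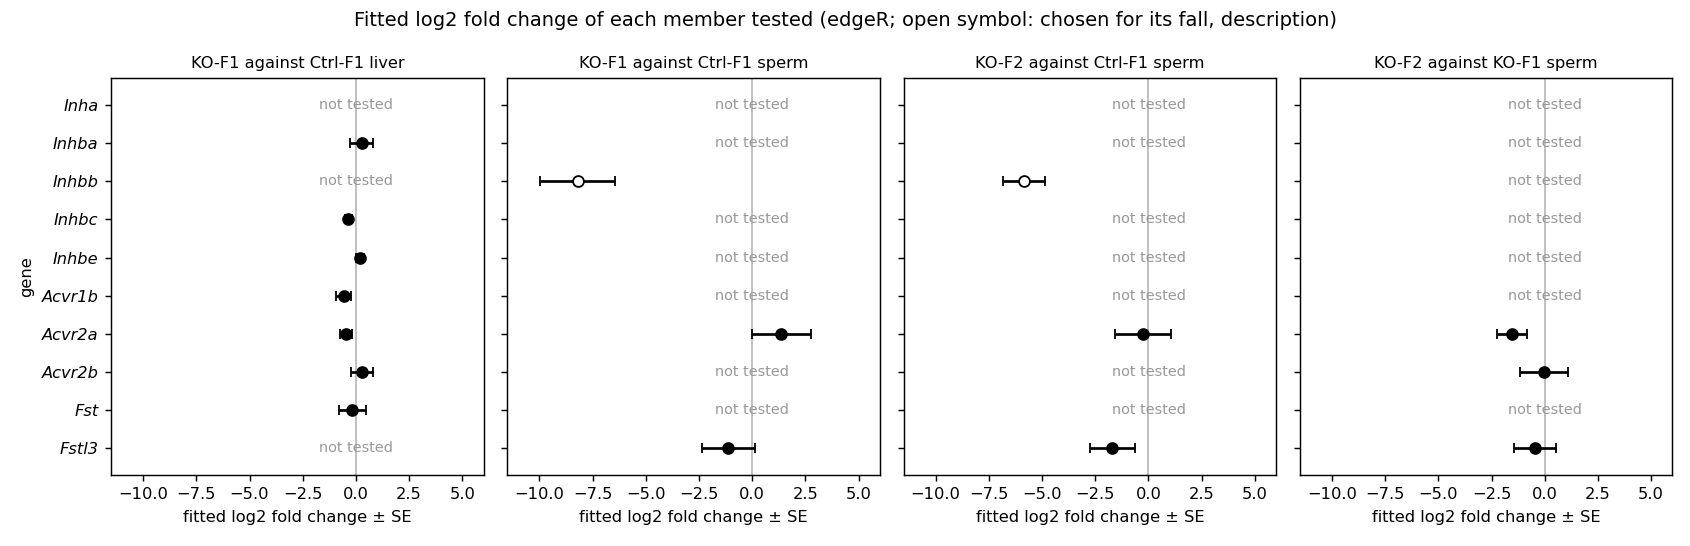
Fitted log2 fold change with its standard error for each gene tested by edgeR in the 4 comparisons, the first-named group minus the second. Open symbols are Inhbb, which was chosen for its fall (-8.20 and -5.86), and genes below the count filter are written as not tested. The 7 liver values lie between -0.57 and 0.28.

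In liver, Inhbc and Inhbe were the highest members and spermatozoa had none of either. The 2 tissues were made with different kits, so they are set side by side with no test. Inhbc was at 76.0 and 88.7 CPM in Ctrl-F1 (1068 and 1316 counts) and at 63.2 and 65.1 CPM in KO-F1 livers (776 and 706 counts). Both KO-F1 values were under both Ctrl-F1 values. The fitted log2 difference was -0.35 (SE 0.15, adjusted p = 0.534, edgeR), and Inhbc fell short of the call. Inhbe, its neighbour on chromosome 10, was at 32.4 and 40.2 CPM in Ctrl-F1 and 44.6 and 37.5 CPM in KO-F1, and these groups overlapped (log2 0.19, SE 0.18, adjusted p = 0.769, edgeR).

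The receptors in liver were led by Acvr2a, at 18.1 and 20.2 CPM in Ctrl-F1 and 17.8 and 9.86 CPM in KO-F1. The groups did not overlap, by the margin between 18.1 and 17.8 CPM, and the log2 difference was -0.46 (SE 0.27, adjusted p = 0.619, edgeR). Acvr1b was at 11.7 and 7.41 CPM in Ctrl-F1 and 4.81 and 8.02 CPM in KO-F1, with overlap (log2 -0.57, SE 0.35, adjusted p = 0.623, edgeR). Acvr2b was at 1.48 to 2.58 CPM and Inhba at 1.01 to 1.63 CPM over the 4 libraries. Fst was at 1.21 and 5.39 CPM in Ctrl-F1 and 3.10 and 2.77 CPM in KO-F1, so that the Ctrl-F1 libraries enclosed the others. Fstl3 had 1 count in 1 liver library, and Inha had none.

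Of the 7 members tested in liver, KO-F1 was the higher group for 3 and the lower for 4. Their median log2 difference was -0.17, against -0.01 over all genes. None was called, beside 0% of 11505 genes by edgeR and 0.274% of 7306 by DESeq2. Of the 7, DESeq2 gave an adjusted p only to Inhbc, Inhbe and Acvr2a, so it could not call the others. None of the 7 had an unadjusted p under 0.05 by edgeR, beside 9.41% of all genes, and 2 had groups that did not overlap, beside 41.7%. Per kb of exon, Inhbc was at 41.7 ± 4.55 CPM per kb (SD, n = 2) in Ctrl-F1 and 32.5 ± 0.658 in KO-F1 livers, and Inhbe at 16.4 ± 2.50 and 18.6 ± 2.26. Acvr2a followed at 3.36 ± 0.259 and 2.43 ± 0.984, then Acvr1b at 2.16 ± 0.682 and 1.45 ± 0.514, Fst at 1.15 ± 1.03 and 1.02 ± 0.0817, and Inhba, Acvr2b and Inhbb at 0.0325 to 0.229 in both groups. In Ctrl-F1 livers the steps from Inhbc to Inhbe, Acvr2a and Acvr1b were each larger than the spreads.

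Of 57 other genes of the activin and TGF-beta pathway, edgeR called 0 of those tested in each of the 4 comparisons. Over all genes tested, edgeR called 0% in liver and in both comparisons with Ctrl-F1 spermatozoa, and 2.31% between the KO generations. In liver 30 were tested, 10 higher and 20 lower in KO-F1, and 4 had an unadjusted p under 0.05, beside 9.41% of all genes. By role, 5 of the 8 SMAD genes were higher and 3 lower (median log2 difference 0.05). Of the 7 SMAD partners and regulators 0 were higher and 7 lower (median -0.33), and 1 of the 7 had such a p. Smurf1, a ubiquitin ligase for SMADs, was at 18.3 and 18.8 CPM in KO-F1 and 25.4 and 24.3 CPM in Ctrl-F1 livers (log2 -0.42, adjusted p = 0.510, edgeR). Smad2, an activin signal transducer, was at 16.2 and 12.5 against 20.1 and 22.4 CPM (log2 -0.55, adjusted p = 0.501). Pcsk6, a convertase of the family that cleaves TGF-beta superfamily precursors, was at 89.9 and 94.6 against 134 and 118 CPM (log2 -0.44, adjusted p = 0.492). Bmpr2, a type II receptor for BMPs, was at 0.896 and 0.829 against 1.92 and 4.31 CPM (log2 -1.84, adjusted p = 0.485). Skil, a SMAD corepressor, was at 3.83 and 1.84 against 4.34 and 6.27 CPM (log2 -0.89, adjusted p = 0.571).

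In KO-F1 against Ctrl-F1 spermatozoa, 24 pathway genes were tested, 16 higher and 8 lower, with a median log2 difference of 0.39 against 0.02 over all genes. DESeq2 called 0 of them, beside 7.80% of the 5000 genes to which it gave an adjusted p. Many of the 24, Pcsk5 among them, were given none and could not be called by it. An unadjusted p under 0.05 by edgeR was found for 3, beside 19.5% of all genes. Pcsk5, another convertase, had 35 and 44 counts in KO-F1 and 0 and 1 in Ctrl-F1 spermatozoa (log2 5.26, SE 1.62, adjusted p = 0.155, edgeR). It passed the count filter only through KO-F1. Smad4, the partner shared by all receptor SMADs, was at 57.4 and 48.1 against 18.7 and 27.5 CPM (log2 1.26, adjusted p = 0.243). Ppm1a, a phosphatase that acts on SMAD2 and SMAD3, was at 261 and 354 against 497 and 1146 CPM (log2 -1.35, adjusted p = 0.195). The BMP receptor Bmpr1a was at 17.5 and 60.7 against 9.98 and 16.7 CPM (adjusted p = 0.294), and Skil at 2.50 and 7.33 against 15.6 and 17.5 CPM (adjusted p = 0.402).

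In KO-F2 against Ctrl-F1 spermatozoa, 28 were tested, 12 higher and 16 lower, and neither tool called any. DESeq2 called 2.14% of 12963 genes and gave no adjusted p to Amhr2 and Smad9. An unadjusted p under 0.05 by edgeR was found for 2, Foxh1 and Amhr2, beside 14.9% of all genes. These 2, and Smad9 below, passed the count filter only through KO-F2, the group where they are high. Foxh1, a DNA-binding partner of SMAD2 and SMAD3 in activin and nodal signalling, had 65 and 58 counts in KO-F2 and 0 in both Ctrl-F1 libraries. Its level was at least 3.55-fold higher with the Ctrl-F1 libraries at 3 counts each (adjusted p = 0.212, edgeR). Amhr2, the receptor of anti-Müllerian hormone, had 39 and 21 counts against 0 and 0, at least 1.67-fold higher (adjusted p = 0.230, edgeR). Skil was at 7.29 and 2.41 against 15.6 and 17.5 CPM (adjusted p = 0.350). Smad9, a BMP-pathway SMAD, was at 2.94 and 2.16 against 0.868 and 0 CPM (adjusted p = 0.488), and Smurf2, a ubiquitin ligase, at 12.5 and 9.52 against 5.21 and 3.34 CPM (adjusted p = 0.497).

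Between the KO generations 33 were tested, 14 higher and 19 lower in KO-F2, 10 had an unadjusted p under 0.05, and DESeq2 called 3. Over all genes these shares were 36.8% and 13.6%, so neither count stood above the background. The 3 called by DESeq2 were Ppm1a, higher in KO-F2 at 853 and 1273 against 261 and 354 CPM (adjusted p = 1.04e-05, DESeq2, and 0.0199, edgeR), Bmpr1b, a BMP type I receptor, lower at 3.51 and 3.05 CPM (37 and 24 counts) against 54 and 66 counts in the shallower KO-F1 libraries (0.00232 and 0.025), and Pcsk5, lower at 1.71 and 0.889 against 9.71 and 17.9 CPM (0.00226 and 0.0291). Of the 8 SMAD genes, 7 were lower and 1 higher in KO-F2, with a median log2 difference of -1.11 against 0.13 over all genes. An unadjusted p under 0.05 by edgeR was found for 3 of the 8, near the 36.8% of all genes. Groups did not overlap for 5, beside 65.8% of all genes. Against Ctrl-F1, 6 of the 7 SMAD genes tested were higher in KO-F1, and 3 of 8 were higher in KO-F2. Smad4 was at 20.8 and 31.5 against 57.4 and 48.1 CPM (adjusted p = 0.092, edgeR), and Smad1 at 19.3 and 27.1 against 78.8 and 32.6 CPM (adjusted p = 0.103, edgeR). Lefty2, a nodal antagonist, was at 0.474 and 0.635 against 2.22 and 11.8 CPM (adjusted p = 0.065, edgeR), and Bmpr1a at 11.8 and 11.3 against 17.5 and 60.7 CPM (adjusted p = 0.084, edgeR). Lefty2 and Pcsk5 passed the count filter of edgeR only through KO-F1, the group where they are high. Tgfbr2, the TGF-beta type II receptor, was at 15.5 and 24.0 against 7.77 and 8.15 CPM (adjusted p = 0.107).

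**Figure D4:**
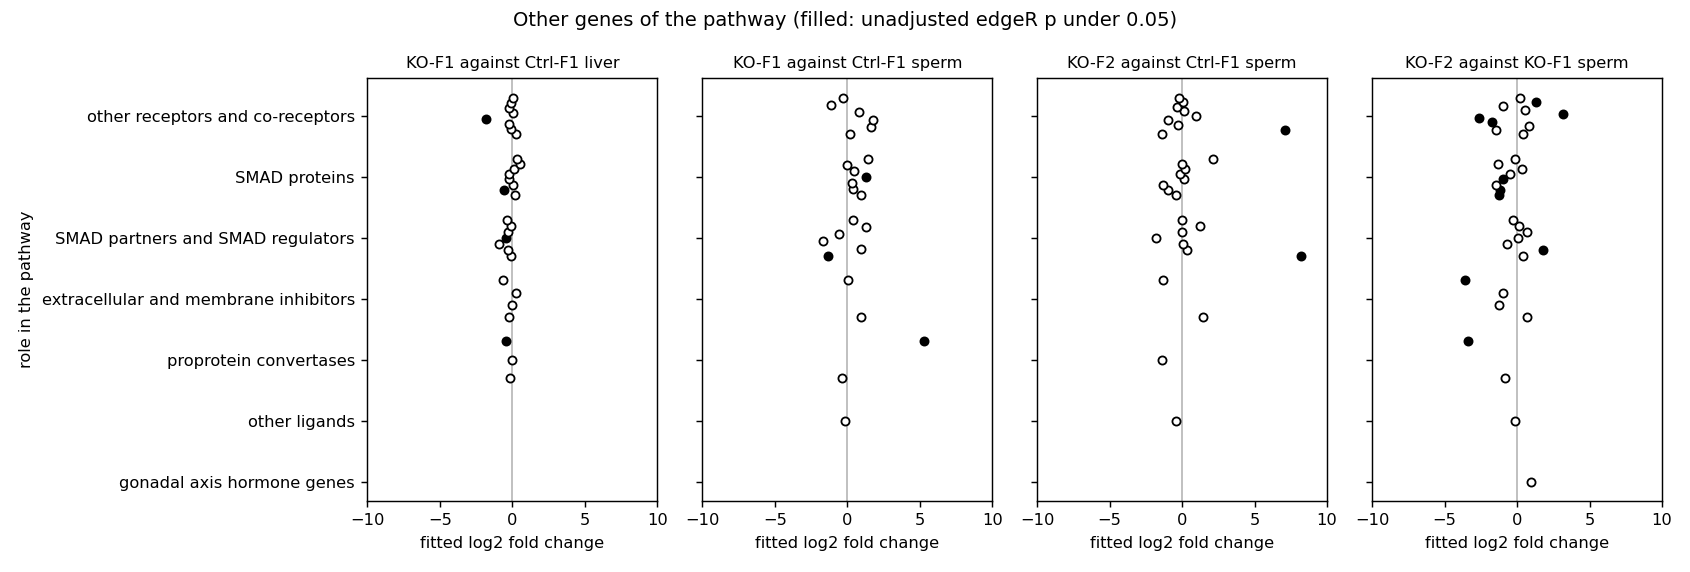
Fitted log2 fold change of the other pathway genes tested by edgeR, grouped by role (vertical axis) in the 4 comparisons, the first-named group minus the second. Filled points have an unadjusted p under 0.05 and no point was called. The points at 8.21 and 7.13 in KO-F2 against Ctrl-F1 spermatozoa are Foxh1 and Amhr2, whose Ctrl-F1 counts were 0.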

How the data were processed

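Per their processing notes and methods, the authors mapped 75-bp single-end reads with HISAT2 2.1.0 to GRCm38 and deposited featureCounts read counts per gene symbol. The annotation and strand setting are not given in the sources used here. Livers were prepared as stranded mRNA libraries and spermatozoa with SMART-Seq v4 and Nextera XT, which amplify cDNA without marking strand, so PCR copies are counted and intervals cover counting error only. Each file held 23420 lines; 4 lines with 2 repeated symbols were left out. No column belonged to another sample. Inhba, Acvr1b, Acvr2a, Fst and Fstl3 overlap another RefSeq gene (B230303A05Rik, Mir6962, Orc4, Gm41074 and Prss57), so their reads may be shared.

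Counts were tested with edgeR 4.0.16 (R 4.3.3; TMM, filterByExpr minimum count 10 and total 15, glmQLFit, glmQLFTest), 2 groups per fit, with Benjamini-Hochberg adjustment over all genes tested, for the 10 libraries. SE is the fitted log2 fold change divided by the root of its F value. Alternatives were DESeq2 1.42.0, its size factors, other count filters, thinning to the smallest library, a replicate block, scaling to late spermatogenesis genes, 1 model over the 3 sperm groups, and leaving out each library. CPM used TMM factors within each tissue. The study calls the 2 libraries of a group independent biological replicates.

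In simulated data with 200 genes changed 4-fold, edgeR called 169 in the liver comparison (11505 genes) and 0 in each sperm comparison (10785, 13149 and 13517 genes), where DESeq2 called 24, 32 and 48.

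The members and gene lists were chosen with earlier results of these data known. Named were all members, the 5 genes most like Inhbb, pathway genes called by either tool and, per comparison, up to 5 more with the smallest p and no overlap between groups. Histone ChIP-seq and embryo samples were not analysed here.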

Additional observations from a re-analysis of the deposited data

How the results depend on the processing

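Each group had 2 libraries, with 1503733 to 2778171 counts in F1 spermatozoa. Members that did not pass the count filter, which scales with library size, had no test. In a Ctrl-F1 sperm library 3 counts equal 1.30 or 2.50 CPM. Of the alternatives, 155 fold changes of members kept their direction and side of the threshold, 4 passed it and 12 turned. This tally includes Inhbb on the contrasts that selected it, with 11 alternatives each and 0 turned, which is no evidence of stability. Those that passed were Inhbb in KO-F2 against Ctrl-F1 spermatozoa and Acvr2a between the KO generations. Of the counts of calls, 82 stayed and 12 moved. Leaving out 1 library moved the member calls in KO-F2 against Ctrl-F1 spermatozoa through Inhbb, on the contrast that selected it. Its log2 difference was -6.1 without Ctrl-F1 replicate 1 and -5.5 without replicate 2. In KO-F2 against KO-F1 spermatozoa they moved through Acvr1b, at a log2 of -4.25 without KO-F1 replicate 1. That library had 0 counts of Acvr1b, so the fit rested on the 25 counts of KO-F1 replicate 2. Acvr1b passed the count filter only through that library and was not tested with all libraries. DESeq2 called 1 member in KO-F2 against Ctrl-F1 spermatozoa (Inhbb again). Scaling to the late spermatogenesis list called 1 in KO-F2 against KO-F1 spermatozoa (Acvr2a), beside 4971 of 13517 genes. Pathway calls between the KO generations were 3 with DESeq2 and 4 with no filter, beside 2058 of 15135 and 2552 of 18714 over all genes. They were 2 with at least 10 counts in every library and 13 scaled to the late spermatogenesis list. The calls over all genes at those settings were 1805 of 8855 and 4971 of 13517. These pathway counts are thus not read as particular to the pathway. Turned by leaving out 1 library were Acvr2b (-0.13 to 0.62) and Fst (-0.87 to 1.28) in liver, Fstl3 in KO-F1 against Ctrl-F1 spermatozoa (-2.25 to 0.40), Acvr2a in KO-F2 against Ctrl-F1 (-1.27 to 3.07), and Acvr2b (-0.23 to 0.0598) and Fstl3 (-1.31 to 0.65) between the KO generations. Late spermatogenesis scaling, which moved the median of all genes from 0.02 to 1.69, turned Fstl3 in KO-F1 spermatozoa to 0.38. Over all genes, edgeR calls were 0 in liver (4 to 107 without 1 library), 0 in KO-F1 against Ctrl-F1 spermatozoa (113 with no filter, 200 with at least 10 counts in every library), 0 in KO-F2 against Ctrl-F1 (35 to 277 without 1 library) and 312 between the KO generations (230 to 2898 without 1 library). The cause was not tested.

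Neither labels nor methods say that a replicate number marks a shared animal or batch. With 2 pairs the correlation of deviations was -0.162 in liver, -0.00908, 0.153 and 0.0607 in the sperm comparisons. The replicate block turned Fst in liver to 0.11 and Acvr2a in KO-F2 against Ctrl-F1 spermatozoa to 0.50, and gave 1 pathway call between the KO generations (Ppm1a). It took the calls over all genes from 0 to 362 in KO-F2 against Ctrl-F1 spermatozoa and from 312 to 819 between the KO generations. Crossed pairing in liver, chosen after seeing the data, called 0 members and turned Fst to 0.084.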
